A study of Homo sapiens with 18 samples.

Results

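The fibroblast growth factor (FGF) family supplies many of the signals that early embryonic cells exchange. Most FGF ligands are secreted, bind a receptor tyrosine kinase (FGFR) together with heparan sulfate on the cell surface, and switch on the RAS-ERK relay inside the receiving cell. Human pluripotent stem cells (PSCs) are grown in medium that contains FGF2, while FGF4, FGF8 and FGF17 are made by the epiblast or the primitive streak, the strip of the embryo through which cells leave to form mesoderm and endoderm. The ligands described here were chosen by name as FGFs of the early embryo and of pluripotent cells, with earlier results of these data known. They are the 10 genes FGF2, FGF3, FGF4, FGF5, FGF8, FGF9, FGF13, FGF17, FGF18 and FGF19, out of 57133 genes counted.

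RNA-seq was carried out on PGP1 cells, a human induced PSC line grown in mTeSR1 on Matrigel. The groups were unedited wild-type (WT) cells and the knockout lines PCGF6-KO clone 1 and PCGF6-KO clone 2, with 2 libraries in each group. PCGF6 is a subunit of the variant Polycomb complex PRC1.6, and both lines were made with CRISPR-Cas9 and paired guide RNAs against its first exon. Each knockout group is a single clone, and nothing in the labels says that the 2 libraries of a group came from separate cultures. The p-values below therefore measure the spread between these libraries, which may be technical. In PCGF6-KO against WT, the 4 libraries of the 2 clones were counted as 4 replicates. The spread in that comparison therefore also holds the difference between the clones. Library totals ran from 15877396 to 18918609 counts, and the 2 libraries of each group lay next to each other on principal components 1 and 2. PCGF6 itself, the targeted gene, was counted 268 and 300 times in WT, 99 and 103 times in clone 1 and 187 and 159 times in clone 2. It was lower in every PCGF6-KO library (log2 fold change -1.15, SE 0.27, adjusted p = 0.00914), a call that was lost without either WT library (adjusted p = 0.0511 and 0.0763) and that held in each clone taken alone. Its transcript was still counted in both clones.

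FGF4 belongs to a subfamily with FGF5 and is secreted by the pluripotent epiblast. FGF8, FGF17 and FGF18 form the FGF8 subfamily, and mouse embryos without Fgf8 fail to move cells away from the primitive streak. FGF19 is an endocrine ligand that controls bile acid synthesis through FGFR4 and the co-receptor KLB. FGF2 is the ligand supplied in the culture medium, FGF9 is a paracrine ligand of lung and gonad, and FGF13 is not secreted but binds voltage-gated sodium channels inside the cell.

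Transcripts of 7 of the 10 ligands were higher in the PCGF6-KO libraries than in WT, in both clones. FGF4, FGF8 and FGF18, each under 3 CPM in WT, rose to between 10.4 and 55.1 CPM. FGF17 was listed at 0 in WT and was counted in all 4 PCGF6-KO libraries. FGF19 and FGF13, already present in WT, rose less, FGF9 rose but stayed low, and FGF2 did not pass the test. FGF3 and FGF5 were too low to be tested. A gene was called when the adjusted p was under 0.05 and the log2 fold change over 0.6 in either direction, and 14.9% of the 17672 genes tested were called higher by this rule in PCGF6-KO against WT. CPM is a gene's count per 1000000 counts of its library, after TMM scaling.

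**Figure D1:**
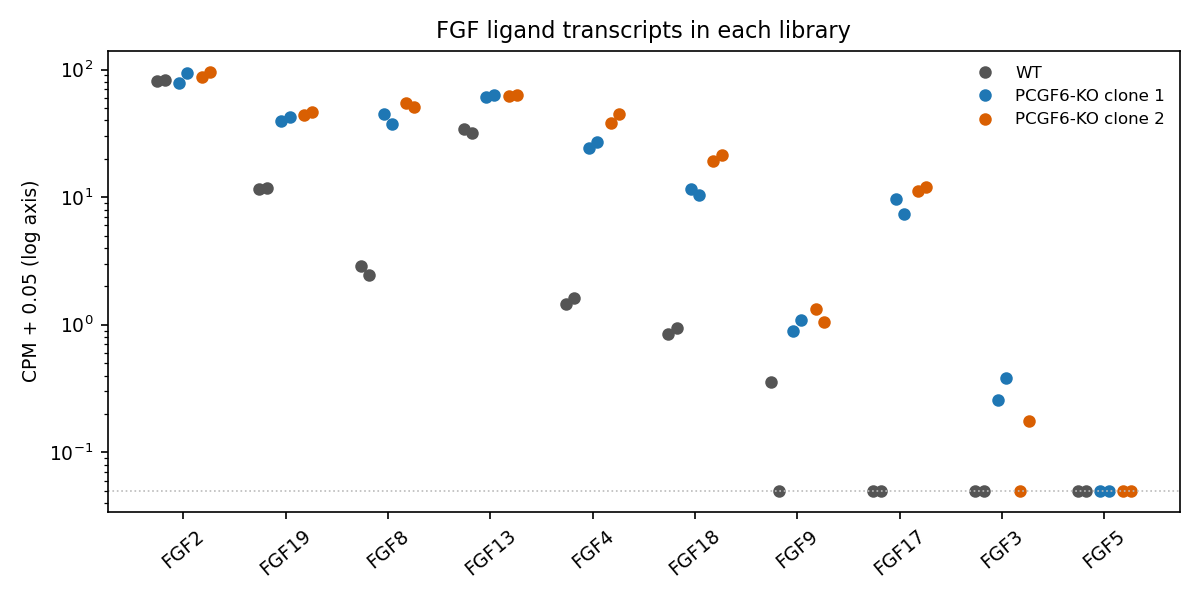
Level of each FGF ligand in the 6 libraries, in CPM on a log axis with a small constant added so that 0 can be drawn (dotted line). Each point is 1 library, and genes are ordered by their WT level per kilobase except that FGF3 and FGF5 stand last. The grey WT points lie below all PCGF6-KO points for FGF19, FGF8, FGF13, FGF4, FGF18, FGF9 and FGF17, and among them for FGF2.

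The FGF8 subfamily held the ligand with the highest level per length in the clones. FGF8 stood at 2.82 and 2.39 CPM in WT, at 44.7 and 37.7 CPM in clone 1 and at 55.1 and 51.0 CPM in clone 2. All PCGF6-KO libraries lay far above both WT libraries, and the log2 fold change was 4.17 (SE 0.20, adjusted p = 1.2e-06). FGF18, which acts in bone and lung development, had 0.797 and 0.898 CPM in WT, 11.4 and 10.4 CPM in clone 1 and 19.3 and 21.2 CPM in clone 2. The 3 groups did not overlap, with WT lowest and clone 2 highest, and the log2 fold change was 4.19 (SE 0.42, adjusted p = 8.4e-05). FGF17 was not counted in either WT library, and was counted 184 and 133 times in clone 1 and 203 and 191 times in clone 2. Taking 3 counts per library as the most that a count of 0 allows in WT, FGF17 was at least 46.5-fold higher in clone 1 and at least 63.5-fold higher in clone 2 (adjusted p for PCGF6-KO against WT 1.1e-05).

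FGF4 rose by about as much as FGF8 and FGF18 on the log2 scale. It had 1.41 and 1.56 CPM in WT, 24.2 and 27.0 CPM in clone 1 and 38.1 and 44.7 CPM in clone 2. The 3 groups did not overlap, and the order was that of FGF18. The log2 fold change was 4.49 (SE 0.34, adjusted p = 1.4e-05). Its subfamily member FGF5, a marker of the primed epiblast in the mouse, had 0 counts in all 6 libraries.

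FGF19 and FGF13 were already expressed in WT. FGF19 stood at 11.6 and 11.8 CPM in WT, at 39.2 and 42.7 CPM in clone 1 and at 44 and 46.2 CPM in clone 2. Both clones lay above WT, and the log2 fold change of 1.88 (SE 0.10, adjusted p = 1.9e-06) was far outside the spread within any group, where the libraries differed by at most 1.09-fold. FGF13 stood at 34.5 and 31.7 CPM in WT, at 60.9 and 62.9 CPM in clone 1 and at 62.1 and 62.7 CPM in clone 2. The clones overlapped each other and not WT, and the log2 fold change was 0.91 (SE 0.07, adjusted p = 2e-05). The gene overlaps the antisense transcript FGF13-AS1, which was counted 19 and 23 times in WT, 53 and 46 times in clone 1 and 34 and 32 times in clone 2 (log2 fold change 0.85, adjusted p = 0.0410), and which was called in clone 1 (1.05, adjusted p = 0.00443) but not in clone 2 (0.60, adjusted p = 0.116). The strand setting of the counting is not given in the sources used here, so reads of this pair cannot be told apart where the genes overlap.

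FGF2 had the highest CPM of the 10 ligands in WT. It stood at 82.0 and 83.1 CPM in WT, at 78.9 and 93.4 CPM in clone 1 and at 87.8 and 96.2 CPM in clone 2. WT lay inside the range of the PCGF6-KO libraries, and the difference was 0.11 on the log2 scale with a 95% interval from -0.09 to 0.31 (adjusted p = 0.359). The upper end of that interval is below the log2 threshold of 0.6. NUDT6, on the opposite strand across part of FGF2, had 34 to 46 counts per library and was not called (log2 fold change -0.22, adjusted p = 0.493).

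FGF9 and FGF3 stayed near the limit of counting. FGF9 was counted 5 and 0 times in WT, 16 and 19 times in clone 1 and 23 and 16 times in clone 2. No PCGF6-KO library was as low as WT, and the log2 fold change was 2.71 (SE 0.70, adjusted p = 0.0145). This call rested on the WT library without a count, since without WT replicate 2 the log2 fold change was 1.73 with an adjusted p of 0.0691. FGF3, a ligand of inner ear development, was not counted in either WT library, was counted 4 and 6 times in clone 1 and 0 and 2 times in clone 2, which is too few for a test.

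FGF9 and FGF17 passed the filter on low counts only through the PCGF6-KO libraries, so that a difference was needed for them to be tested at all. Of the others tested, FGF4, FGF8, FGF13, FGF18 and FGF19 rose and FGF2 was not called. Every PCGF6-KO library lay above both WT libraries for 7 of the 10 ligands and for 29.5% of all genes tested. The same 7 ligands were called higher in each clone, where 16.0% of genes tested were called higher in clone 1 and 16.9% in clone 2. Both comparisons used the same 2 WT libraries. The median log2 fold change of all genes tested was 0.00 in each, as in PCGF6-KO against WT. Since whole cultures were sequenced, more cells that express a ligand and more RNA per cell cannot be told apart.

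**Figure D2:**
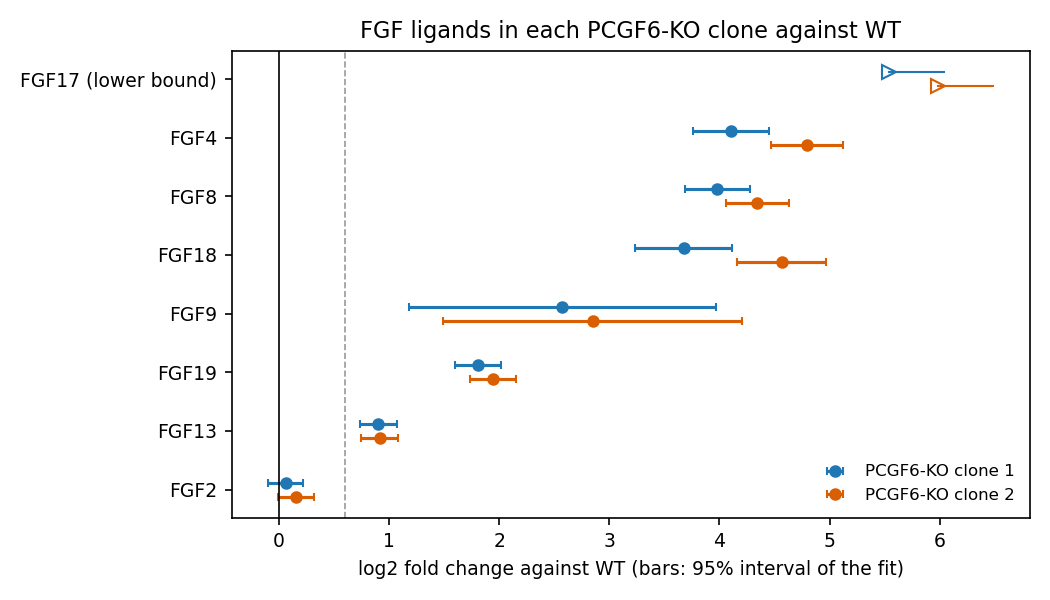
Log2 fold change of each tested ligand in clone 1 and in clone 2 against WT, with 95% intervals of the fit as bars. Open triangles give FGF17 as a lower bound against 3 counts per WT library, and the dashed line marks the log2 threshold of 0.6. FGF4, FGF8 and FGF18 lie between 3.68 and 4.79, FGF19 near 1.9, FGF13 near 0.9, and the FGF2 intervals lie across 0.

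The clones differed from each other in part of the group. Against clone 1, clone 2 had more FGF4 (log2 difference 0.69, SE 0.10, adjusted p = 1.1e-05) and more FGF18 (0.89, SE 0.12, adjusted p = 5.7e-06), while 3.73% of all genes tested were called higher in clone 2. FGF8 (0.36, adjusted p = 0.00585) and FGF17 (0.44, adjusted p = 0.0449) were higher in clone 2 by less than the fold threshold. No difference was called for FGF19 (0.14, 95% interval -0.04 to 0.32), FGF13 (0.01, -0.15 to 0.17), FGF2 (0.10, -0.06 to 0.25) or FGF9 (0.28, -0.64 to 1.19). The difference in FGF4 fell to 0.57, under the fold threshold, without clone 2 replicate 2 (adjusted p = 0.00122), and that in FGF17 ran from 0.26 without clone 1 replicate 2 (adjusted p = 0.364) to 0.66 without clone 1 replicate 1 (adjusted p = 0.0144). The FGF8 difference ran from 0.24 without clone 1 replicate 2 (adjusted p = 0.109) to 0.50 without clone 1 replicate 1 (adjusted p = 0.000951). Both also missed an adjusted p of 0.05 without clone 2 replicate 1 (FGF8 0.0714, FGF17 0.100), and FGF17 did so without clone 2 replicate 2 (0.193). PCGF6 counts were also higher in clone 2 than in clone 1 (0.90, adjusted p = 5.4e-05), and the part of this in the ligand differences was not tested.

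To compare the ligands with each other, CPM was divided by the gene length that the authors deposited with the counts. For FGF13 this was 20681 bases, against 20720 for all its annotated exons together in GENCODE 44. Lengths of single transcripts were not tried, and a shorter length would place FGF13 higher. In WT, FGF2 came first with 12.2 ± 0.12 CPM per kb (SD, n = 2), followed by FGF19 with 4.78 ± 0.06, FGF8 with 1.86 ± 0.22 and FGF13 with 1.6 ± 0.09. FGF4 (0.459) and FGF18 (0.427) came next and overlapped each other. In both clones the order was led by FGF8, with 29.4 ± 3.5 CPM per kb in clone 1 and 37.8 ± 2.0 in clone 2, ahead of FGF19 (16.7 and 18.4), FGF2 (12.7 and 13.6), FGF4 (7.93 and 12.8) and FGF18 (5.49 and 10.2). Neighbours in this order did not overlap, except FGF2 and FGF4 in clone 2. FGF13 (2.99 and 3.02) and FGF17 (2.57 and 3.51) followed and changed places between the clones, and FGF9, FGF3 and FGF5 were at or under 0.25 in both. With exon lengths from GENCODE 44, an alternative chosen after seeing the data, FGF19 rose to 6.42 in WT, FGF8 and FGF13 overlapped in WT, and FGF9 and FGF3 changed places in clone 1.

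The summed level of the 10 ligands was 21.4 and 21.3 CPM per kb in WT, against 79.0 and 77.5 in clone 1 and 98.4 and 101 in clone 2. FGF2 made up 57.1% of this sum in WT, 16.3% in clone 1 and 13.6% in clone 2. FGF8 went from 8.71% to 37.5% and 38.0%. FGF19 held 22.4% in WT, 21.4% in clone 1 and 18.5% in clone 2. FGF4 went from 2.15% to 10.1% and 12.8%, and FGF18 from 2.0% to 7.02% and 10.2%.

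**Figure D3:**
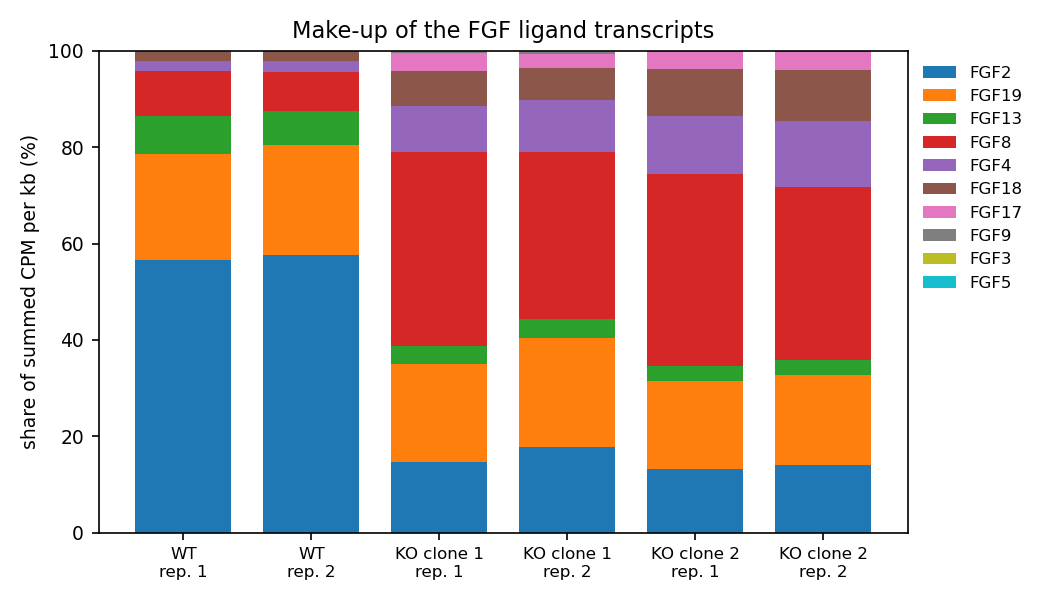
Share of each ligand in the summed CPM per kb of the 10 ligands, 1 bar per library. FGF2 (blue) fills 56.5% and 57.7% of the WT bars and at most 17.8% of a PCGF6-KO bar, while FGF8 (red) fills 34.7% to 40.3% of the PCGF6-KO bars.

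With the 12 remaining FGF genes added, the sum came to 25.8 and 25.6 CPM per kb in WT, against 86.3 and 85.2 in clone 1 and 106 and 110 in clone 2. Over all 22 FGF genes, the FGF8 subfamily took 8.89% of the summed CPM per kb in WT, 43.7% in clone 1 and 47.8% in clone 2. Of the 12 genes, 7 were tested, 3 were higher, 2 were lower and 2 were not called, with a median log2 fold change of -0.16. Over all genes tested, 14.9% were called higher and 8.70% lower. Of these 7 genes, 2 passed the filter only through the PCGF6-KO libraries. FGF10, a ligand of limb and lung budding, was counted 2 and 2 times in WT, 92 and 61 times in clone 1 and 128 and 117 times in clone 2 (adjusted p = 8.9e-05), and it passed the filter only through the PCGF6-KO libraries. FGF1, which can bind every FGF receptor, was counted 15 and 19 times in WT, 42 and 51 times in clone 1 and 66 and 83 times in clone 2 (log2 fold change 1.73, SE 0.39, adjusted p = 0.00827). FGF16 went the other way, counted 23 and 16 times in WT, 10 and 9 times in clone 1 and 7 and 3 times in clone 2 (log2 fold change -1.54, SE 0.42, adjusted p = 0.0190). The calls of FGF1 and FGF16 were lost when either WT library was left out, with adjusted p between 0.0512 and 0.194. FGF12, an intracellular relative of FGF13, was the third gene that rose and FGF11 the other that fell.

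**Figure D4:**
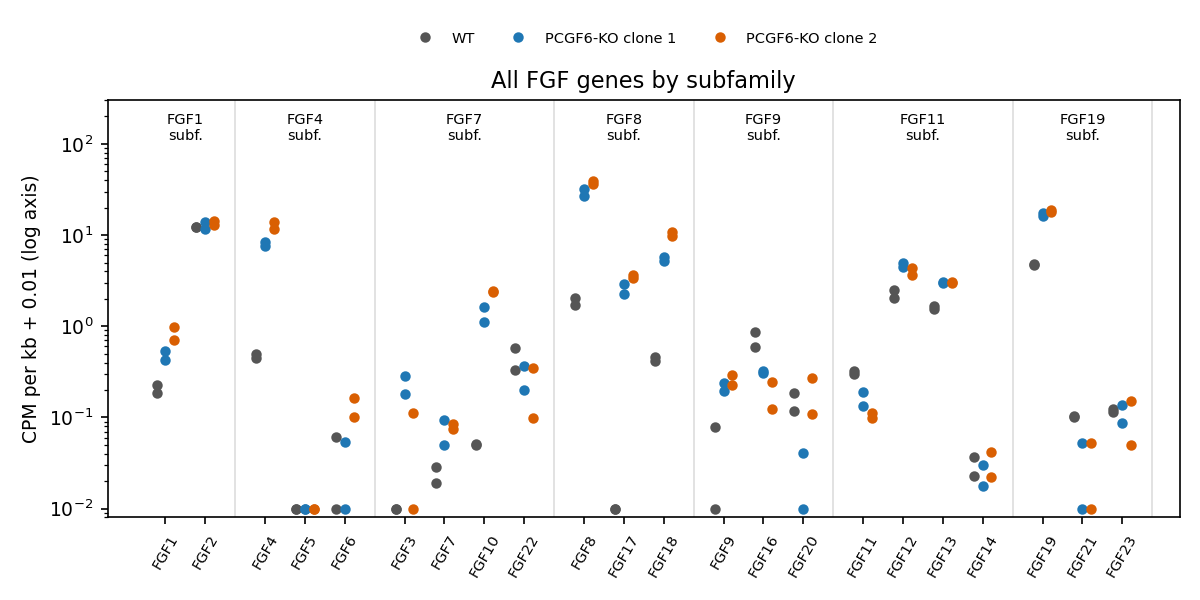
Level of all 22 FGF genes in CPM per kb, on a log axis with a small constant added, grouped by subfamily. Each point is 1 library. The FGF8 subfamily holds 3 genes that lie above WT in every PCGF6-KO library, whereas the FGF9 subfamily holds FGF16, which lies below WT, beside FGF9, which lies above it.

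Of 7 receptor and klotho co-receptor genes, 6 were tested, FGFR3 was called higher and none was called lower (median log2 fold change -0.14), beside 14.9% higher and 8.70% lower over all genes tested. FGFR3, a receptor for ligands of the FGF8 and FGF9 subfamilies, stood at 14.4 and 13.2 CPM in WT, 96.4 and 87.7 CPM in clone 1 and 86.1 and 80.4 CPM in clone 2 (log2 fold change 2.67, SE 0.10, adjusted p = 3.4e-07). Both clones lay above WT without overlap. FGFR1 (log2 fold change 0.12, adjusted p = 0.280), FGFR4, which serves FGF19 (-0.18, adjusted p = 0.108), and KLB (-0.26, adjusted p = 0.680) did not pass the test, and FGFR2 (-0.37, adjusted p = 0.00356) stayed under the fold threshold.

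Among 29 genes that bind FGFs or build and trim heparan sulfate, 26 were tested, 8 were higher and 3 were lower (median log2 fold change 0.33), beside the same 14.9% and 8.70%. FLRT3 and FLRT2, membrane proteins that bind FGF receptors, had log2 fold changes of 3.51 (SE 0.39, adjusted p = 0.000145) and 3.28 (SE 0.30, adjusted p = 4.9e-05). FLRT1, of the same family, went the other way (-2.31, SE 0.41, adjusted p = 0.00236) and was called lower in both clones. The other lower genes of this list were ANOS1 and FGFBP3. NDST3, a heparan sulfate sulfotransferase, had 2 and 6 counts in WT and between 27 and 65 in the PCGF6-KO libraries, through which alone it passed the filter (adjusted p = 0.00291). None of the 19 genes of the RAS-ERK relay was called by edgeR or by DESeq2, with log2 fold changes from -0.39 (BRAF) to 0.40 (GRB2) and a median of -0.02. At an unadjusted p under 0.05, 4 of them were higher and 3 lower with either tool, and with edgeR 3 higher and 3 lower had an adjusted p under 0.05 and missed the call on fold alone. Over all genes, edgeR called 14.9% higher and 8.70% lower, and 6556 of 17672 had an adjusted p under 0.05 with no fold threshold. Of 14 genes that feed back on ERK or are read out as its targets, 5 were higher and 5 were lower (median log2 fold change 0.18), again beside 14.9% and 8.70%, and ETV1, one of the latter, was not called in clone 1 (-0.46). SPRY2, an inhibitor of receptor signalling (log2 fold change 1.48, SE 0.15), and DUSP4, an ERK phosphatase (1.46, SE 0.11), rose, while SPRY3 (-1.54, SE 0.22) fell. DUSP6, another ERK phosphatase singled out after its values were seen, fell from 101 and 99.2 CPM in WT to between 47.4 and 50.3 CPM in the PCGF6-KO libraries.

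Most marker lists of other cell types rose in sum with the ligands, while the sum of the neuroectoderm list fell. The median log2 fold change of the neuroectoderm genes tested was 1.38 in PCGF6-KO against WT. Counts of called markers given here stand beside 14.9% higher and 8.70% lower over all genes tested. The 8 primitive streak markers summed to between 6.56 and 6.76 CPM in WT, between 620 and 621 CPM in clone 1 and between 744 and 755 CPM in clone 2, with 2 genes at 0 in WT. All 6 of them that were tested were called higher. TBXT went from 0 and 0.718 CPM in WT to 183 and 168 CPM in clone 1 and 304 and 289 CPM in clone 2, MIXL1 from 4.29 and 2.75 CPM to between 288 and 342 CPM, and EOMES from at most 0.299 CPM to between 88.9 and 139 CPM. The 6 definitive endoderm markers summed to between 1.86 and 2.64 CPM in WT, between 43.5 and 45.5 CPM in clone 1 and between 83.5 and 86.0 CPM in clone 2, with 4 of 5 tested higher, and SOX17 rose from 0 counts in both WT libraries to between 33 and 47. The amnion markers (5 of 6 tested higher, from 9.69 to 10.9 CPM in WT, 51.2 to 51.6 in clone 1, 71.0 to 72.4 in clone 2) and the fibroblast markers (7 of 8 higher and 1 lower, from 846 to 859 CPM in WT, 1749 to 1777 in clone 1, 1988 to 2073 in clone 2) were higher in sum as well. Of the 8 fibroblast genes, 3 were at 0 in both WT libraries, so the WT sum came from the rest of that list. Of the genes tested, 3 primitive streak, 4 definitive endoderm, 3 amnion, 4 fibroblast and 3 neuroectoderm markers passed the filter only through the PCGF6-KO libraries, so that for these a difference was needed to be tested at all. The neuroectoderm markers (2 of 5 tested higher, 2 lower) went from 87.4 to 90.0 CPM in WT to 33.0 to 37.1 in clone 1 and 34.5 to 34.7 in clone 2, most of it OTX2, which fell from 71.9 and 72.0 CPM to between 28.7 and 31.5 CPM. PAX6 stood at 0.123 and 0.539 CPM in WT and between 0.622 and 0.992 CPM in the PCGF6-KO libraries, and was called higher in clone 1 (log2 fold change 1.51, adjusted p = 0.0260) but not in clone 2 (1.22, adjusted p = 0.0805) or in PCGF6-KO as a whole (1.38, adjusted p = 0.0714).

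Of the 8 pluripotent cell markers, all tested, 2 were lower and none was higher, beside 8.70% lower and 14.9% higher over all genes tested. They summed to between 8200 and 8549 CPM in WT, between 6397 and 6466 CPM in clone 1 and between 5803 and 5944 CPM in clone 2. POU5F1 stayed near its WT level (log2 fold change 0.01, adjusted p = 0.907), NANOG was 0.40 higher on the log2 scale, under the fold threshold (adjusted p = 0.0139), and SOX2 fell (-0.69, adjusted p = 0.0178). SOX2 was called lower in clone 2 (-1.04) and not in clone 1 (-0.41), and the clones differed by -0.63 (adjusted p = 1.3e-08). DNMT3B, a DNA methyltransferase, held most of the drop in the sum, from 2951 and 3080 CPM in WT to 1602 and 1555 CPM in clone 1 and 1147 and 1157 CPM in clone 2. The part of these cell type markers in the ligand levels was not tested.

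FGF19, FGF4 and FGF3 lie side by side on the minus strand of chromosome 11 (GRCh38, GENCODE 44), at chr11:69698238-69704022, chr11:69771022-69775341 and chr11:69809968-69819416. By the gene bounds of RefSeq (GRCh38.p14), from which all distances here were taken, the gap between FGF19 and FGF4 is 67.0 kb and that between FGF4 and FGF3 is 34.6 kb. Within this row FGF19 rose by 1.88 and FGF4 by 4.49 on the log2 scale, while FGF3 stayed at 6 counts or fewer. LTO1, 22.9 kb from FGF19, was not called (log2 fold change 0.24, adjusted p = 0.236), and ANO1, a chloride channel gene 146.6 kb from FGF3, fell (-0.96, adjusted p = 0.00422).

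**Figure D5:**
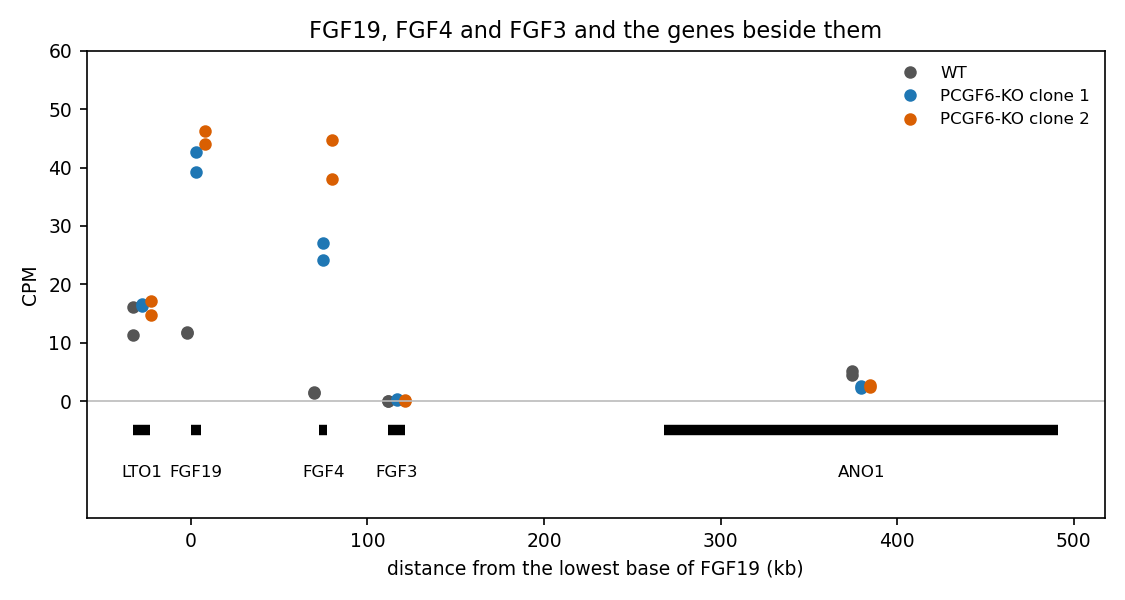
Level in CPM of the 3 clustered FGF genes and the protein-coding gene on either side, against distance from the lowest base of FGF19 in kb. Black bars show the extent of each gene and each point is 1 library. FGF19 and FGF4 rise, the flanking genes LTO1 and ANO1 do not, and FGF3 lies at the baseline in every group.

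The 3 genes of the FGF8 subfamily each have a nucleoplasmin gene as a neighbour. NPM3 lies 1.0 kb from FGF8 (log2 fold change 0.11, adjusted p = 0.573) and NPM1 lies 8.7 kb from FGF18 (-0.13, adjusted p = 0.186), and neither was called. NPM2, 2.8 kb from FGF17, had between 2 and 12 counts and was not tested. On its other side, DMTN lies 0.1 kb past FGF17 and was counted 9 and 4 times in WT, 38 and 50 times in clone 1 and 64 and 45 times in clone 2 (log2 fold change 2.79, SE 0.41, adjusted p = 0.000835), having passed the filter only through the PCGF6-KO libraries. FBXW4, 74.8 kb from FGF8 on its other side, was not called (-0.02, adjusted p = 0.945), and SMIM23, 315 kb from FGF18, had between 2 and 8 counts and was not tested.

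PRC1.6 is brought to DNA in part by MAX, which with its partners binds the E-box CACGTG, and by E2F6, whose sites hold GCGGGAA, while TCF/LEF factors of the WNT pathway bind sites with the core CTTTGA. These 3 motifs were searched on both strands in RefSeq promoters (GRCh38.p14, 250 bases before to 50 after each start), which cover FGF2, FGF3, FGF5, FGF13 and FGF18 with 7 windows. They occur in 7.26%, 6.55% and 12.9% of the 35116 promoter windows. The only match among the 7 windows was CTTTGA in FGF18, beginning 174 bases before the start, so no matches overlapped. FGF13, which like FGF18 rose in both clones, holds no match in either of its windows. The part of this match in the FGF18 level was not tested. The 250 bases before the start are shown for FGF18, which rose in both clones and holds that match (in capitals), on the plus strand at chr5:171419397-171419646, and for FGF3, which stayed near 0 counts and holds none, on the minus strand at chr11:69819417-69819666.
FGF18: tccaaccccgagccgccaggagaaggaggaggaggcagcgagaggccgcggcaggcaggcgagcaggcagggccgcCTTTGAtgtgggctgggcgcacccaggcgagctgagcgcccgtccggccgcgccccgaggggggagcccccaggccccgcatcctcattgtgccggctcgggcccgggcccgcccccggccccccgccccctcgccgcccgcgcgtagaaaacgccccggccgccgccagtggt
FGF3: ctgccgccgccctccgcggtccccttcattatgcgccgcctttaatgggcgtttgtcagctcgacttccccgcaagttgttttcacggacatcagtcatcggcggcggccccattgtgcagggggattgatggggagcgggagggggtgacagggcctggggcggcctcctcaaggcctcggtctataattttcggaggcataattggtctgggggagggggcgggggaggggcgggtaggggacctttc
The FGF18 window had a GC content of 77.7% with 38 CG dinucleotides and that of FGF3 66.7% with 26, against medians of 58.7% and 14 over all windows. FGF13 has 1 window with 69.0% GC and 34 CG dinucleotides and another with 37.7% and none. Which start the cells used was not measured here.

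Among the called ligands, the 3 with the highest mean CPM were FGF13, FGF19 and FGF8, and for these the genes with the most similar profile over the 6 libraries were found (smallest Euclidean distance between centred log2(CPM + 0.5) values, among 17671 genes). MFSD1, PLCB4 and ME3 came closest to FGF13, at distances of 0.08 to 0.09. ALDH3A2, TMEM54 and SH3RF2 came closest to FGF19, at 0.08 to 0.12. FGF8 was followed by ABCG2, HOXC4 and SPON1 at 0.22 to 0.28. HOXC4 had 2 and 0 counts in WT, where the constant of 0.5 CPM sets most of its value, and fitted log2 fold changes of 6.66 and 7.23 in the clones, against 3.98 and 4.35 for FGF8. Among the ligands themselves, the shortest distance was that between FGF4 and FGF8, at 0.55.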

How the data were processed

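RNA-seq of WT, PCGF6-KO clone 1 and PCGF6-KO clone 2 PGP1 cells (2 libraries each) was used. The authors trimmed reads with Trim Galore (0.6.2), aligned them to GRCh38 with HISAT2 (2.1.0) and counted them with featureCounts, and deposited raw counts per gene for 57133 genes, with gene lengths in bases. The annotation release, strand setting and treatment of multi-mapped reads are not given in the sources used here. The ChIP-seq samples were not analysed here.

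From the counts, genes were filtered with filterByExpr by genotype (17672 left), scaled by TMM and tested with the quasi-likelihood test of edgeR (4.0.16, R 4.3.3), 4 PCGF6-KO against 2 WT libraries. Each clone was set against WT, and clone 2 against clone 1, in a second model with the 3 groups as terms. P-values were two-sided and adjusted by Benjamini-Hochberg over all genes tested, and a call needed both an adjusted p under 0.05 and a log2 fold change beyond 0.6 in either direction. Each SE and 95% interval was worked out from the log2 fold change and the F statistic of its test, which returns neither. The steps were tested on simulated data. Floors use 3 counts per library and cover counting error only. Between replicates, chi-square per degree of freedom over genes with at least 20 counts was 2.40 to 4.50, so no library was a copy of another.

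The members and lists were chosen with earlier results of these data known. Besides the ligands and PCGF6, the text names at most 3 genes of each pathway list (the largest change among those called alike in both clones), 8 markers, flanking protein-coding genes of the FGF19 cluster and the FGF8 subfamily and the nearest profiles. The genes flanking the other ligands are not reported here. FGFR1, FGFR2, FGFR4, KLB, FGF11, FGF12, FLRT1, ANOS1, FGFBP3, BRAF, GRB2, NUDT6, FGF13-AS1, ETV1, DNMT3B, OTX2 and DUSP6 were named outside this rule. Alternatives were RLE and upper-quartile scaling, no filter, DESeq2 (1.42.0), a replicate block, no fold threshold, leaving out each library, other groupings of the samples in the fit and GENCODE 44 lengths.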

Additional observations from a re-analysis of the deposited data

Results flagged for a closer look

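The following differences between the clones, each tested in the fit with 3 groups, stood out because the effect against WT was not the same in both. On the log2 scale, clone 2 minus clone 1 was 0.69 for FGF4 and 0.89 for FGF18. Outside the ligands it was 0.81 for FGF10 (adjusted p = 0.00374) and 0.81 for FGF1 (adjusted p = 0.0191), 0.89 for FLRT3 (adjusted p = 2.1e-06), 1.08 for NDST3 (adjusted p = 0.00845) and 0.90 for PCGF6. The differences of FGF10, FGF1 and NDST3 were not called by DESeq2 (adjusted p 0.0996, 0.202 and 0.142), and those of FGF4, FGF18, FLRT3 and PCGF6 were.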

How the results depend on the processing

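The number of ligands called higher was 7 in PCGF6-KO against WT and in each clone under every scaling, filter, tool, grouping and threshold tried, and 6 to 7 in PCGF6-KO and in clone 1 and 7 in clone 2 when each library was left out, the loss being that of FGF9 without WT replicate 2 (1.73 in PCGF6-KO and 1.6 in clone 1). In clone 2 against clone 1 the 2 ligands called became 4 with no fold threshold and 1 to 3 when each library was left out (1 without clone 2 replicate 2, 3 without clone 1 replicate 1). Over all genes, 4167, 4379, 5197 and 1390 were called in PCGF6-KO, clone 1 and clone 2 against WT and between the clones, and with no fold threshold 6556, 8002, 8904 and 3442. DESeq2 called 810 genes between the clones. When each library was left out these counts ran from 3041 to 4251, 4068 to 4322, 4794 to 5192 and 1102 to 1419. Values near 0 changed sign in 5 cases, none of them called: FGF2 in clone 1 against WT without clone 1 replicate 2 (-0.0512, against 0.183 without clone 1 replicate 1), and, between the clones, FGF13 with upper-quartile scaling (-0.0125), FGF13 (-0.00749) and FGF2 (-0.0193) without clone 1 replicate 1, against 0.0302 and 0.216 without clone 1 replicate 2, and SPRY3 without clone 2 replicate 1 (-0.187, against 0.463 without clone 2 replicate 2). Of the 7 ligands called higher, FGF9 and FGF17 passed the filter of the main fit only through the PCGF6-KO libraries. FGF16 was not called by DESeq2 (-1.57, adjusted p = 0.0741). PCGF6 lost its call in PCGF6-KO against WT without either WT library (adjusted p 0.0511 and 0.0763) but not in either clone. The cause of these changes was not tested, other than fewer libraries or a looser threshold.

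Deviations from the group mean of libraries with the same replicate number correlated across 13420 genes at r = 0.0745 (WT and clone 1), 0.0746 (WT and clone 2) and 0.181 (the clones). The rank correlations were 0.149, 0.125 and 0.271. On principal component 3, replicate 1 lay below replicate 2 in every group. The main fits did not pair the libraries by these numbers. A replicate block in the fit left 7, 7, 7 and 2 ligands and 3876, 4420, 5233 and 1484 genes called in the same 4 comparisons, and in PCGF6-KO against WT each pathway list kept its counts. With 2 libraries per group, levels of the ligands under about 20 counts (FGF3, FGF5, FGF9) are uncertain. So are the WT levels of FGF17 (0 and 0 counts) and FGF18 (13 and 15 counts), and with them the size of their fold changes. Whether FGF5, at 0 counts throughout, was absent or below the depth reached was not tested.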
